A study of Mus musculus with 6 samples.

Results

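The 10 genes described here, Lyz2, Cd68, Csf1r, Ctss, Tyrobp, Fcer1g, Mrc1, Cx3cr1, Laptm5 and Itgam, are expressed in macrophages and other myeloid cells, and they were followed in bulk RNA from mouse kidney. They were chosen by name, with earlier results of these data known. Each matched 1 row of the deposited table of 23396 genes. All 10 were among the 14354 genes with enough fragments to be tested, and no value of theirs carried a failed-estimate mark. The libraries came from right kidneys of male mice aged 6 months. The 3 knockout mice were homozygous for a knockout of Far2, which encodes a fatty acyl-CoA reductase, in the strain C57BL/6N-Far2tm2a(KOMP)Wtsi/2J. The 3 wild-type mice were C57BL/6N. The labels name no Cre driver and no treatment, and the series describes the mice of a group as biological replicates.

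Resident macrophages form a network between the tubules of the kidney, and monocytes that arrive from the blood add to it after injury. Csf1r, the receptor for the growth factors Csf1 and Il34, keeps these cells alive, and Cx3cr1 binds the chemokine Cx3cl1. Tyrobp and Fcer1g are small adaptor proteins whose ITAM motifs pass on the signal of receptors that have no signalling tail of their own, and Itgam (CD11b) pairs with Itgb2 to form an adhesion and complement receptor. Lyz2, Ctss, Cd68 and Laptm5 work inside the cell, as a bacteria-lysing enzyme, a cysteine protease of the endosome, a heavily glycosylated lysosomal membrane protein and a lysosomal membrane protein of blood cells.

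The libraries held from 15261362 to 20631158 fragments, and they are called here by the number 0, 1 or 2 that the deposited table gives them within each genotype. Far2 itself held 40, 40 and 22 fragments in the wild-type libraries and 28, 19 and 31 in the knockout libraries, so its whole-gene count overlapped between the genotypes, with a log2 difference of −0.23 ± 0.24 (SE). A count over the whole gene does not show which of its exons were read, so the genotype used throughout is that of the labels. Wild-type library 0 stood apart from the other 5: its summed level of 12 tubular injury genes was 1568 CPM (fragments scaled to a common library depth), against 817 to 952 in the others. Of that sum Spp1 alone held 988 CPM in wild-type library 0, and 448 to 580 CPM in the others. Havcr1 (KIM-1), the standard marker of the injured proximal tubule and named here after its values were seen, stood at 21.5 CPM in that library and at 0.617 to 0.916 CPM in the others. The members' comparisons and the medians of the gene lists are therefore given with and without wild-type library 0. In bulk RNA, fewer cells of a type and less RNA per cell cannot be told apart.

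Across the 10 genes the knockout mean was the lower one in 10 of 10, against 51.7% of all genes tested, but none passed the test across all genes. No gene at all passed edgeR's quasi-likelihood test at a Benjamini-Hochberg adjusted p under 0.05 (0 of 14354, 0.0%), while 1193 genes (8.31%) passed 0.05 before adjustment. DESeq2 called 14 of 11291 genes (0.124%), none of them a member, but it gave no adjusted p for Cd68, Fcer1g, Cx3cr1 and Itgam. Without wild-type library 0 the knockout mean was lower in 5 of the 10, against 49.9% of all genes. The lower means of Lyz2, Ctss, Tyrobp, Mrc1 and Cx3cr1 thus rested on that 1 library, and Csf1r, Fcer1g, Itgam, Laptm5 and Cd68 kept their direction. Part of the difference in Cd68, Laptm5 and Itgam came from it too. Their log2 differences of −0.60, −0.48 and −0.89 became −0.22 ± 0.32, −0.25 ± 0.23 and −0.59 ± 0.25 (SE) without it. Csf1r, Fcer1g and Itgam were the members whose knockout libraries all lay below all wild-type libraries (3 of 10, against 6.96% of all genes). The same 3 did so without wild-type library 0 (against 15.2%), and with 3 libraries against 3 an exact two-sided permutation test of 1 gene cannot go below p = 0.10.

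Levels between genes were compared as FPKM, fragments scaled to transcript length and library depth. By the mean over the 5 libraries other than wild-type library 0, Lyz2 was the highest at 14.4 ± 4.91 FPKM (SD, n = 5). Csf1r at 12.4 ± 0.931 and Ctss at 12.1 ± 1.78 did not differ from Lyz2 beyond that spread, and Tyrobp followed at 9.40 ± 2.52 FPKM. Fcer1g lay below them at 5.31 ± 1.66 and Laptm5 at 2.96 ± 0.689 FPKM, and these 2 genes held the fifth and the sixth place in all 6 libraries. Cd68 (1.26 ± 0.272) and Mrc1 (1.09 ± 0.160) overlapped and changed places in knockout library 0. Cx3cr1 was at 0.737 ± 0.176 FPKM, and Itgam was the lowest of the 10 in every library at 0.402 ± 0.108 FPKM. Of all genes tested, 81.4% had a lower mean FPKM over the 6 libraries than Lyz2, 67.6% than Csf1r and 8.03% than Itgam, so the list runs from well expressed to barely expressed genes of the whole kidney.

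**Figure D1:**
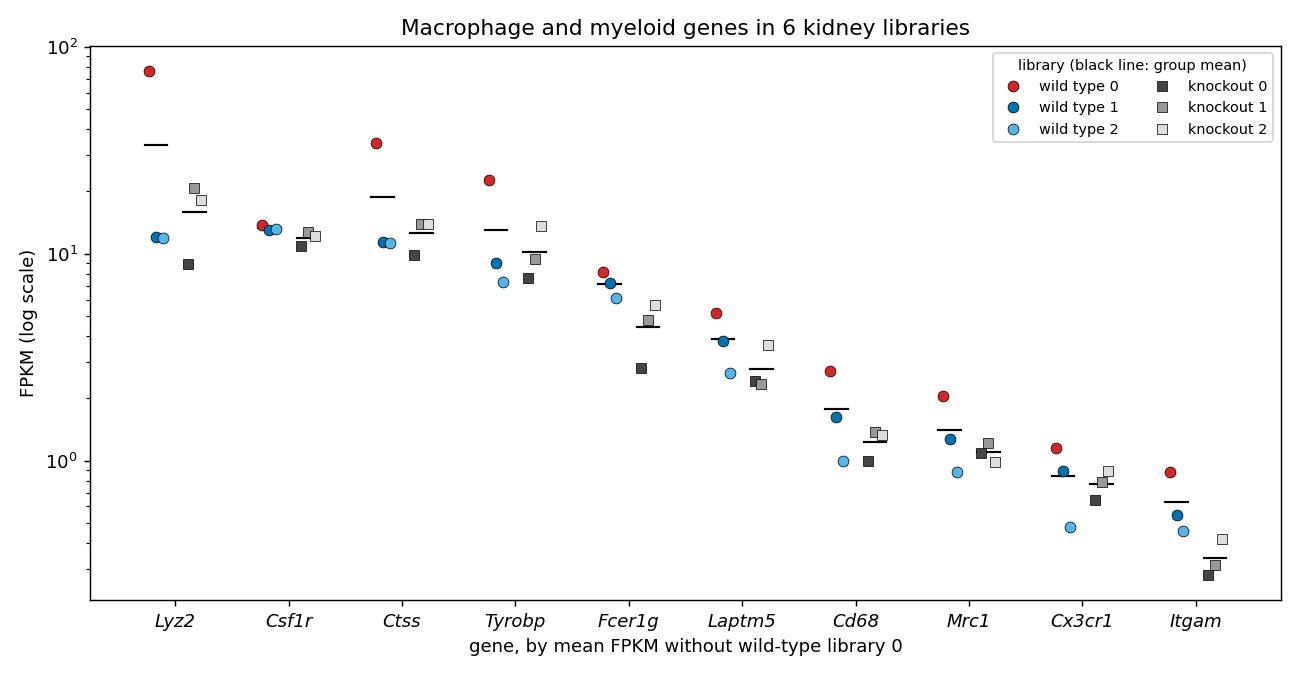
FPKM on a log scale of each of the 10 genes in each library, with circles for the 3 wild-type and squares for the 3 knockout libraries, and a black line at the mean of each group. Wild-type library 0 (red) is far above the other points for Lyz2 at 76.3 FPKM and for Ctss at 34.1 FPKM, and level with the other wild-type libraries for Csf1r.

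The sequence in front of the transcription start is shown for the genes on which the comparison turns: Lyz2 and Ctss, the members highest in wild-type library 0 relative to the rest, Itgam and Fcer1g, which were lower in every knockout library, and Lyz1, the close copy of Lyz2. The stretches are the 170 bases before the RefSeq start (GRCm38.p6), written 5′ to 3′ on the strand of the gene, from chr10:117282273-117282442 (minus strand), chr10:117292869-117293038 (minus), chr3:95526616-95526785 (plus), chr7:128062470-128062639 (plus) and chr1:171234350-171234519 (minus). Capitals mark the hexamers GAGGAA and GGAAGT or their reverse complements TTCCTC and ACTTCC. These are cores bound by factors of the ETS family, among them PU.1 (Spi1), the factor that directs myeloid development. Other sequences that ETS factors bind were not searched for.
Lyz2: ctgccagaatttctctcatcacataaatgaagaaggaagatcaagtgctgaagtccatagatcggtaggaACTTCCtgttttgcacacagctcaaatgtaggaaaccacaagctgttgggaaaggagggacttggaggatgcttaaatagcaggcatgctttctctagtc
Lyz1: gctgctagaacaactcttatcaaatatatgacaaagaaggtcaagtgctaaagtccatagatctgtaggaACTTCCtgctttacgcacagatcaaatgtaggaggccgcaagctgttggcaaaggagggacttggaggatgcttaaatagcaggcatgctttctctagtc
Ctss: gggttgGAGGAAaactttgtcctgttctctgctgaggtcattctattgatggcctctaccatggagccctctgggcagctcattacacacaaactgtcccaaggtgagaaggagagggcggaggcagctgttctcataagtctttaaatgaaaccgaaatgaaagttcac
Itgam: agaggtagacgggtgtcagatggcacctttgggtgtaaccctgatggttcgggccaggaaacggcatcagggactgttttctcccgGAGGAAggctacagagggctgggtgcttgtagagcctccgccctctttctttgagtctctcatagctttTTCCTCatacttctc
Fcer1g: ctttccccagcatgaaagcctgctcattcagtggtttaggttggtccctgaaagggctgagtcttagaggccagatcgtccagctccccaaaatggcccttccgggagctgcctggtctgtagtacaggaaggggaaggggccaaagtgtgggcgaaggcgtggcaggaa
In the 250 bases before the start, Lyz2 holds 1 GGAAGT, Ctss 1 GAGGAA, Itgam 2 GAGGAA, and Fcer1g neither hexamer on either strand. RefSeq promoters were at hand for 8 of the 10 members. Of these, 5 hold GAGGAA, against 23.3% of 32851 promoters of that length, 3 hold GGAAGT, against 19.7%, and 6 hold at least 1 of them, against 36.7%. The hexamers can overlap by 4 bases, so that 1 stretch may count for both, and a match describes letters in this window, not a bound site. The upstream stretches of Lyz2 and Lyz1 have the same base at 131 of the 170 positions shown, and the hexamer lies 95 bases before the start in both.

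Lyz2, the lysozyme of macrophages (chromosome 10, 117277541 to 117282272, mm10), varied the most. Its fragments were 1687, 296 and 218 in wild-type libraries 0, 1 and 2 and 175, 345 and 377 in knockout libraries 0, 1 and 2, or 76.3, 12.0077 and 11.9 FPKM against 8.96, 20.8 and 18.1. Wild-type library 0 was far above every other library, knockout libraries 1 and 2 were above the other 2 wild-type libraries, and the genotypes overlapped. The log2 fold change, here and below the knockout over the wild type, was −1.09 ± 0.63 (SE; edgeR, adjusted p = 0.633) with a 95% interval from −2.50 to 0.33. Without wild-type library 0 it turned to 0.33 ± 0.28 (adjusted p = 0.672). The difference between the genotypes was therefore smaller than the spread within the wild-type group.

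Lyz1, the Paneth cell lysozyme, shares 195 of the 1267 stretches of 50 bases in the Lyz2 transcript (15.4%), so fragments of one can be counted for the other. Lyz1 held 118, 15 and 12 fragments in the wild-type and 9, 14 and 20 in the knockout libraries. It was highest in the same library as Lyz2, and it made up between 3.9% and 6.54% of the fragments of both genes in every library. How fragments with several alignments were counted is not given in the sources used here.

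Ctss, the endosomal protease cathepsin S (chromosome 3, 95526786 to 95556403), was likewise highest in wild-type library 0 and lowest in knockout library 0, over a narrower range than Lyz2. It held 879, 317 and 239 fragments in the wild-type libraries and 228, 274 and 338 in the knockout libraries, or 34.1, 11.3 and 11.2 FPKM against 9.91, 13.9 and 13.9. Only wild-type library 0 was high, and the other 2 wild-type libraries lay inside the range of the knockout. The log2 fold change was −0.59 ± 0.37 (adjusted p = 0.646) and 0.11 ± 0.15 without that library (adjusted p = 0.806). The annotation places a pseudogene, Hmgb1-ps5, inside the Ctss locus.

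Cd68 and Laptm5, both lysosomal membrane proteins, were lower in the knockout mean with and without wild-type library 0, within the spread of the libraries. Cd68 held 56, 38 and 17 fragments in the wild-type and 18, 21 and 26 in the knockout libraries, or 2.71, 1.63 and 0.994 FPKM against 0.990, 1.37 and 1.33. Its lowest wild-type library lay level with its lowest knockout library, and at 17 fragments the exact 95% Poisson interval of that library's count runs from 9.90 to 27.2. Laptm5 held 253, 202 and 107 fragments against 103, 88 and 171, or 5.17, 3.80 and 2.64 FPKM against 2.42, 2.33 and 3.60. Here knockout libraries 0 and 1 were below all wild-type libraries and knockout library 2 was not. The log2 fold change of Cd68 was −0.60 ± 0.34 (adjusted p = 0.627) and −0.22 ± 0.32 without wild-type library 0. For Laptm5 it was −0.48 ± 0.24 (adjusted p = 0.603) and −0.25 ± 0.23 without that library.

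Among the receptors, Csf1r (chromosome 18) was the steadiest of the 10. It held 1233, 1284 and 981 fragments in the wild-type and 864, 888 and 1047 in the knockout libraries, or 13.7, 13.1 and 13.1 FPKM against 10.9, 12.7 and 12.2. The 3 wild-type libraries were nearly level and all 3 knockout libraries lay below them, knockout library 0 the furthest. The log2 fold change was −0.17 ± 0.080 with a 95% interval from −0.35 to 0.0048 (unadjusted p = 0.0553, adjusted p = 0.600), and −0.18 ± 0.093 without wild-type library 0 (adjusted p = 0.485). Without knockout library 0 it was −0.10. With at least 864 fragments in every library, Csf1r had the smallest counting error of the list. In the annotation, whose Csf1r locus is wider than the deposited one, Mir6983 and Hmgxb3 overlap it.

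Cx3cr1, the fractalkine receptor (chromosome 9, 120048683 to 120068296), did not separate the genotypes. It held 93, 77 and 32 fragments in the wild-type and 47, 49 and 68 in the knockout libraries, or 1.15, 0.889 and 0.478 FPKM against 0.646, 0.787 and 0.887. The highest and the lowest library were both wild type, with all 3 knockout libraries between them. Its log2 fold change of −0.13 ± 0.27 (adjusted p = 0.902) became 0.13 ± 0.27 without wild-type library 0. The annotation gives Cx3cr1 a wider locus, 119901616 to 120069879, which overlaps 9 other genes, among them Wdr48 and Xirp1.

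Mrc1, the mannose receptor CD206 of tissue macrophages (chromosome 2, 14229414 to 14332023), gave a like picture. It held 231, 149 and 81 fragments in the wild-type and 112, 107 and 106 in the knockout libraries, or 2.04, 1.28 and 0.882 FPKM against 1.09, 1.21 and 0.989. The knockout libraries lay close together inside the wild-type range. The log2 fold change was −0.33 ± 0.25 (adjusted p = 0.698) and 0.038 ± 0.17 without wild-type library 0 (adjusted p = 0.949). The microRNA gene Mir511 lies within the Mrc1 locus.

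Both ITAM adaptors were lower in the knockout mean, and whether their differences were unequal was not tested. Tyrobp (DAP12; chromosome 7, 30413788 to 30417579) held 211, 103 and 57 fragments in the wild-type and 60, 62 and 120 in the knockout libraries, or 22.8, 9.01 and 7.29 FPKM against 7.67, 9.41 and 13.6. Its genotypes overlapped, with knockout library 2 second only to wild-type library 0. The log2 fold change was −0.45 ± 0.37 (adjusted p = 0.718) and 0.12 ± 0.27 without that library.

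Fcer1g, the common gamma chain of Fc receptors (chromosome 1, 171229572 to 171234349), held 84, 84 and 52 fragments in the wild-type and 25, 38 and 55 in the knockout libraries, or 8.15, 7.23 and 6.08 FPKM against 2.79, 4.79 and 5.63. On this scale, which takes the library's depth into account, all knockout libraries were below all wild-type libraries, although the raw fragments of wild-type library 2, from a shallower library, were fewer than those of knockout library 2. The fitted level was 1.67-fold higher in the wild type, a log2 fold change of −0.74 ± 0.25 with a 95% interval from −1.31 to −0.18 (unadjusted p = 0.0154, adjusted p = 0.599). Without wild-type library 0 the value was −0.68 ± 0.29 (1.60-fold, adjusted p = 0.428). Without knockout library 0, the lowest of the 6, it was −0.48. Fcer1g and Itgam made up the 2 of 10 members with a lower knockout level at an unadjusted p under 0.05, against 5.14% of all genes tested (7.06% without wild-type library 0).

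Within a library, the ratio of Fcer1g to Tyrobp in FPKM was 0.357 in wild-type library 0 and 0.802 and 0.834 in the other 2. In the knockout libraries it was 0.364, 0.509 and 0.414. The knockout libraries thus shared their low ratio with wild-type library 0, where Tyrobp was the highest of the 6 libraries by far and Fcer1g by little.

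Itgam, the CD11b chain of the complement receptor Mac-1 (chromosome 7, 128062640 to 128118491), had the lowest level of the 10. It held 91, 60 and 39 fragments in the wild-type and 26, 25 and 41 in the knockout libraries, or 0.877, 0.545 and 0.458 FPKM against 0.279, 0.313 and 0.417. All knockout libraries lay below all wild-type libraries, though knockout library 2 came close to wild-type library 2. The fitted level was 1.85-fold higher in the wild type, a log2 fold change of −0.89 ± 0.27 with a 95% interval from −1.50 to −0.27 (unadjusted p = 0.00920, adjusted p = 0.599). It was −0.59 ± 0.25 (adjusted p = 0.432) without wild-type library 0. At 25 fragments the exact 95% Poisson interval of a count runs from 16.2 to 36.9, so its counting error is wide. The annotation overlaps Itgam with Gm49368, and the strand setting of the counting is not given in the sources used here.

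**Figure D2:**
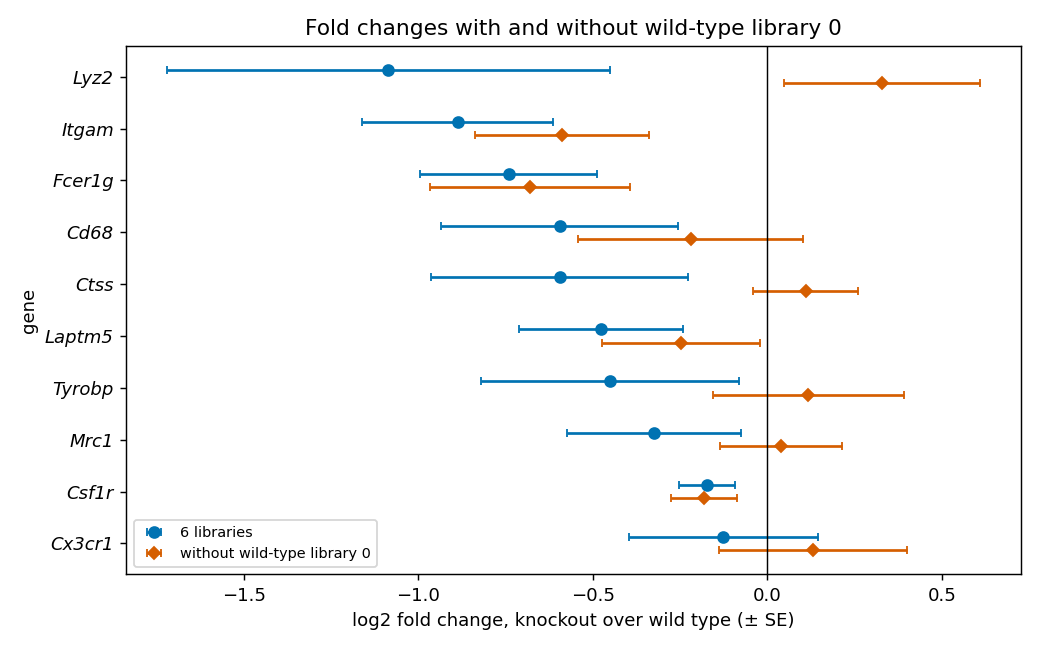
Log2 fold change (knockout over wild type) with its standard error for each gene, from all 6 libraries (blue circles) and without wild-type library 0 (orange diamonds), with a line at 0. Lyz2, Ctss, Tyrobp, Mrc1 and Cx3cr1 cross the line when that library is left out, and Itgam, Fcer1g and Csf1r stay on the lower side at −0.59, −0.68 and −0.18.

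The ratios to Csf1r within a library show how unequally the members moved in wild-type library 0. The FPKM of Lyz2 was 5.57 times that of Csf1r there, against 0.919 and 0.904 times in wild-type libraries 1 and 2 and 0.824, 1.63 and 1.49 times in the knockout. Ctss stood at 2.49 times there and at 0.856 to 1.14 times in the other 5. The ratio of Itgam to Csf1r was 0.0639, 0.0417 and 0.0349 in the wild-type and 0.0257, 0.0246 and 0.0342 in the knockout libraries. The ratio of Fcer1g to Csf1r was 0.594, 0.554 and 0.4625 against 0.257, 0.377 and 0.4616. Both ratios were lower in every knockout library, each by a margin far smaller than its spread within a genotype, since knockout library 2 came close to wild-type library 2.

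Set against the mean of the other 2 wild-type libraries in CPM, wild-type library 0 held 5.94 times as much Lyz2, 2.86 times as much Ctss and 2.44 times as much Tyrobp. The ratios were 1.91 for Cd68, 1.86 for Mrc1, 1.68 for Itgam, 1.61 for Cx3cr1 and 1.52 for Laptm5, and they fell to 1.13 for Fcer1g and 0.982 for Csf1r. That library was the highest of the 6 for 9 of the 10 genes, against 17.1% of all genes tested. It was at least 1.5 times the next highest library for 6 of the 10, against 1.23% of all genes. At the other end, knockout library 0 was the lowest for 7 of the 10 (13.3% of all genes). Summed over the list, the level was 239, 124 and 118 CPM in the wild-type and 94.4, 126 and 127 CPM in the knockout libraries. Without Lyz2 and Ctss it was 112, 94.7 and 88.6 against 71.4, 84.9 and 88.1 CPM, so that wild-type library 2 and knockout library 2 were level.

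**Figure D3:**
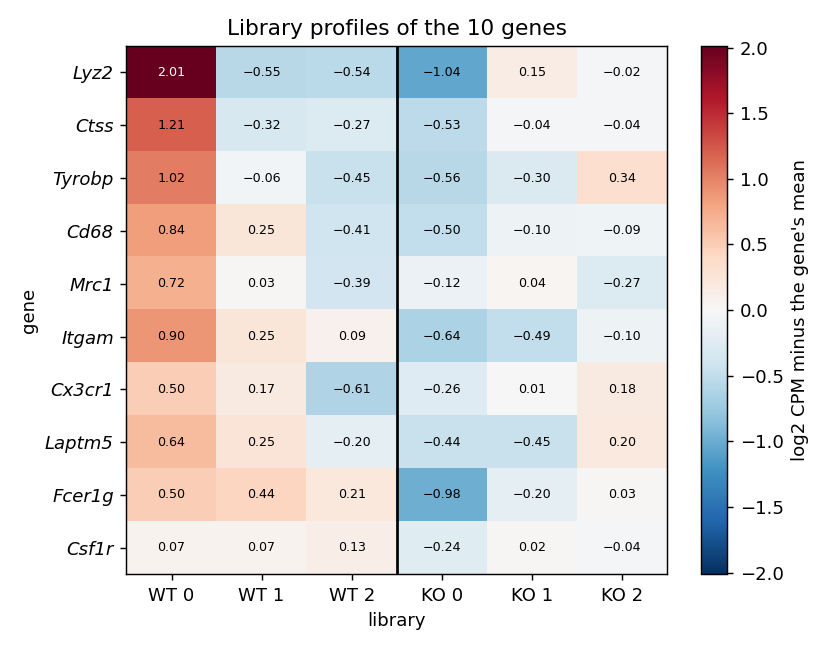
Log2 CPM of each gene minus its mean over the 6 libraries, with wild-type (WT) libraries to the left of the line and knockout (KO) libraries to the right, and genes ordered by how far wild-type library 0 exceeded the other 2. The colour of that library fades from Lyz2 to Csf1r, while knockout library 0 is below the mean for all 10 genes.

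The 5 other genes whose profile over the 6 libraries was closest to the members' mean profile, by root mean square distance of centred log2 CPM, were Il2rg (0.0682), Pik3cg (0.0760), Epsti1 (0.0764), Ccr2 (0.0931) and H2-Ab1 (0.0984). Cd68 was the closest member at 0.114, and Csf1r (0.375) and Lyz2 (0.602) were the farthest. H2-Ab1, an MHC class II chain, held 83.2, 55.8 and 46.3 CPM in the wild-type and 39.2, 51.5 and 55.3 CPM in the knockout libraries, and Ccr2, the receptor that brings monocytes to tissue, held 21.6, 10.5 and 9.67 against 8.14, 10.7 and 12.7 CPM. In both, wild-type library 0 was the highest and the other 5 overlapped, and the log2 fold change of Ccr2 went from −0.41 to 0.056 without that library.

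Other genes of the same cells and pathways were taken from lists of names, and none of them passed the test with or without wild-type library 0. The lists were chosen with earlier results of these data known, so their counts beside the shares of all genes are descriptions, not tests. Of 16 tested of 24 other tissue macrophage genes, 14 were lower in the knockout mean and 2 higher, with a median log2 fold change of −0.29 that went to 0.061 without wild-type library 0. The 10 members had a median of −0.54 that went to −0.072, and the median of all genes tested was −0.0066. C1qa, a chain of the first complement component, stood at 21.4, 11.0204 and 9.18 FPKM in the wild-type and 11.4, 12.99 and 13.1 FPKM in the knockout libraries. Its wild-type library 0 was the only high one, and the log2 fold change of −0.21 went to 0.18 without it. Lgals3 (galectin-3), the highest of the list, went from −0.21 to 0.047. Mertk, a receptor for the uptake of dying cells, was flat between 12.1 and 14.2 FPKM in all 6, and Timd4 was at 0 in all of them. The 2 of 16 lower at an unadjusted p under 0.05 (5.14% of all genes), named after their values were seen, were Stab1 and Axl. Their log2 fold changes of −0.27 and −0.34 were −0.28 and −0.23 without wild-type library 0. In CPM neither overlapped between the genotypes (2 of 16, against 6.96% of all genes), but in FPKM Stab1 did.

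Colony-stimulating factors and chemokines include the ligands of Csf1r and Cx3cr1 and those of other receptors of leukocytes. Of 15 colony-stimulating factors and chemokines, 7 were tested, 6 were lower and 1 higher, with a median of −0.26. Without wild-type library 0 the median was −0.27, with 5 lower and 2 higher, as Cxcl16 went from −0.046 to 0.15. Cx3cl1, the ligand of Cx3cr1, was at 19.5, 16.5 and 17.2 FPKM in the wild-type and 15.3, 13.4 and 16.7 FPKM in the knockout libraries. Knockout library 2 reached above wild-type library 1, and the log2 fold change was −0.24 ± 0.090 (unadjusted p = 0.0240), and −0.20 without wild-type library 0. Il34, the second ligand of Csf1r, gave 0.071 ± 0.29 (0.17 without that library). The 5 of 7 ligands lower at an unadjusted p under 0.05, against 5.14% of all genes tested, were Cx3cl1, Csf1 (−0.26), Ccl5 (−0.89), Ccl6 (−0.74) and Ccl9 (−1.15), the last 4 named after their values were seen. Without that library these 4 were −0.27, −0.71, −0.56 and −0.67. Csf1, the main ligand of Csf1r, was at 9.33, 9.44 and 9.28 CPM in the wild-type and 8.37, 7.24 and 7.71 CPM in the knockout libraries, without overlap.

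The colony-stimulating factor, chemokine and complement receptors, which include Ccr2, were lower in the mean for 8 of 8 tested, with a median of −0.40 that went to −0.014 without wild-type library 0. Of the list of Fc receptors and other ITAM-coupled receptors, which includes the inhibitory Fcgr2b, 7 of 14 were tested. Of these, 5 were lower and 2 higher, with a median of −0.30 and 0.082 without that library. Fcgr3, an activating Fc receptor that needs Fcer1g, was at 5.32, 2.77 and 2.27 FPKM in the wild-type and 2.56, 2.79 and 2.99 FPKM in the knockout libraries. Fcgr4, another such receptor, gave 0.11 ± 0.21 and Fcgr2b, the inhibitory one, 0.087 ± 0.082. Fcgr3 gave −0.35 ± 0.27. Without wild-type library 0 the values were 0.062 for Fcgr3, 0.24 for Fcgr4 and 0.12 for Fcgr2b. Fcgr1, a further activating receptor that needs Fcer1g and named after its values were seen, did not overlap in CPM (1 of 7 tested, against 6.96% of all genes). In FPKM Fcgr1 did overlap, with knockout library 1 at 0.464 and wild-type library 2 at 0.452. It stood at 2.08, 1.42 and 1.43 CPM in the wild-type and 0.683, 1.40 and 1.24 CPM in the knockout libraries, a log2 fold change of −0.59 ± 0.32 and of −0.37 without wild-type library 0. Of 11 genes tested of the signalling below the adaptors, 9 were lower and 2 higher, with a median of −0.31 and −0.086 without wild-type library 0, and Lyn, a kinase that phosphorylates ITAMs, gave 0.0049 ± 0.11 (0.12 without it).

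Of 9 tested leukocyte integrins and their partners, 8 were lower and 1 higher in the knockout mean, with a median of −0.54. Without wild-type library 0 the median was −0.48, with 6 lower and 3 higher, as Selplg went to 0.048 and Icam1 to 0.11. The median was −0.33 without knockout library 0. Itgb2, the chain that pairs with Itgam, was at 3.17, 2.26 and 1.25 FPKM in the wild-type and 1.17, 1.74 and 1.83 FPKM in the knockout libraries. Its groups overlapped, and the log2 fold change was −0.52 ± 0.28 and −0.22 without wild-type library 0. The 4 of 9 lower at an unadjusted p under 0.05 (5.14% of all genes), named after their values were seen, were Itgax (−0.83), Itga4 (−0.65), Itgb7 (−0.84) and Fermt3 (−0.54). Without that library they were −0.52, −0.50, −0.48 and −0.51. Itgax (CD11c), the chain of the dendritic cell and macrophage integrin p150, was at 8.93, 5.83 and 4.54 CPM in the wild-type and 2.50, 4.19 and 4.26 CPM in the knockout libraries. It did not overlap, as Itgam did not.

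The lysosomal and the transcription factor lists hold many genes that the epithelium of the kidney also expresses. Of 22 lysosomal hydrolases and membrane proteins, 16 were higher and 6 lower in the knockout mean, with a median of 0.065 and 0.086 without wild-type library 0. Lamp1 lay between 424 and 465 FPKM in all 6 libraries. Of 12 myeloid transcription factors, 7 were lower and 5 higher (median −0.028, and 0.025 without wild-type library 0). Sfpi1, the table's name for Spi1 and chosen here because it encodes PU.1, was at 2.83, 1.66 and 1.36 CPM in the wild-type and 0.968, 1.40 and 1.51 CPM in the knockout libraries, with wild-type library 0 the highest and an overlap between the rest. Its log2 fold change of −0.61 went to −0.24 without that library.

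Markers of other cell types were read beside these values. All 12 pan-leukocyte genes were lower in the knockout mean (median −0.40) and 8 of them were higher without wild-type library 0 (median 0.019). Cd52, a surface protein of most leukocytes, stood at 30.2 FPKM in that library and at 9.51 to 17.6 FPKM in the others. Lower at an unadjusted p under 0.05 (5.14% of all genes) were 1 of 12 pan-leukocyte genes and 1 of 7 monocyte markers. These were Cd37, named after its values were seen, at −1.65, and Ms4a6c at −0.53. Without wild-type library 0 they were −1.64 and −0.56. Cd37 was low, at 1.19, 1.28 and 1.04 CPM in the wild-type and 0.171, 0.332 and 0.593 CPM in the knockout libraries. The 7 monocyte markers had a median of −0.41 and 0.033 without wild-type library 0, and 6 tested T and NK cell markers −0.54 and −0.14. For 7 tested dendritic cell markers the median was −0.32 and −0.20, with 7 of 7 lower in the knockout mean. It was −0.73 with wild-type library 2 left out and −0.93 with knockout library 2 left out. Of these 7, 3 were lower at an unadjusted p under 0.05 (5.14% of all genes). Zbtb46, a transcription factor of dendritic cells, gave −0.28 ± 0.12 (−0.26 without wild-type library 0). Flt3 and Xcr1, named after their values were seen, gave −1.18 and −0.82 (−1.17 and −0.69 without that library). Both were low, and the highest value of either in a library was 1.75 CPM. Neutrophils, which also express Itgam, Tyrobp and Fcer1g, left few fragments: 6 of 13 were tested, their sum ran from 5.13 to 7.64 CPM in the wild-type and from 4.25 to 7.98 CPM in the knockout libraries, and Camp and Mpo were at 0 in all libraries. Their median was −0.035 and 0.0070 without wild-type library 0. Of the mast cell markers, Mcpt4 and Fcer1a, the chain that partners Fcer1g in the IgE receptor, were at 0 in all libraries. The 4 tested of the B cell markers summed to 1.59 to 5.86 CPM (median −0.38, and 0.11 without wild-type library 0). Fat cell genes went the other way, with 5 of 5 tested higher in the knockout mean, a sum of 38.0, 28.7 and 35.7 CPM in the wild-type and 44.8, 40.7 and 63.0 CPM in the knockout libraries, and a median of 1.03 (1.16 without wild-type library 0). Most of that sum was Fabp4, at 35.0, 27.5 and 30.0 CPM in the wild-type and 40.0, 37.5 and 48.4 CPM in the knockout libraries. Its mean over the 6 libraries was 58.5 FPKM, against 0.596 FPKM for Adipoq. Which cells the Fabp4 fragments came from was not tested. Adipoq, Cfd, Plin1 and Cidec, the last 2 named after their values were seen, overlapped between the genotypes. Each was highest in knockout library 2, at 2.05, 7.22, 2.05 and 3.23 CPM, and none exceeded 2.66 CPM elsewhere. The part of the fat cell genes, and that of tubular injury, in the members' values was not tested. The 12 tubular injury genes were highest in wild-type library 0 for 11 of 12, with a median of −0.34 that went to 0.090 without it. Spp1, a secreted phosphoprotein of stressed tubules and of macrophages, stood at 663 FPKM in that library and at 295 to 377 FPKM in the others. The 10 kidney epithelial markers summed to 30878 to 37450 CPM over the 6 libraries (median −0.054, and −0.14 without wild-type library 0), and the red blood cell genes had a median of 0.028 (0.11 without wild-type library 0).

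**Figure D4:**
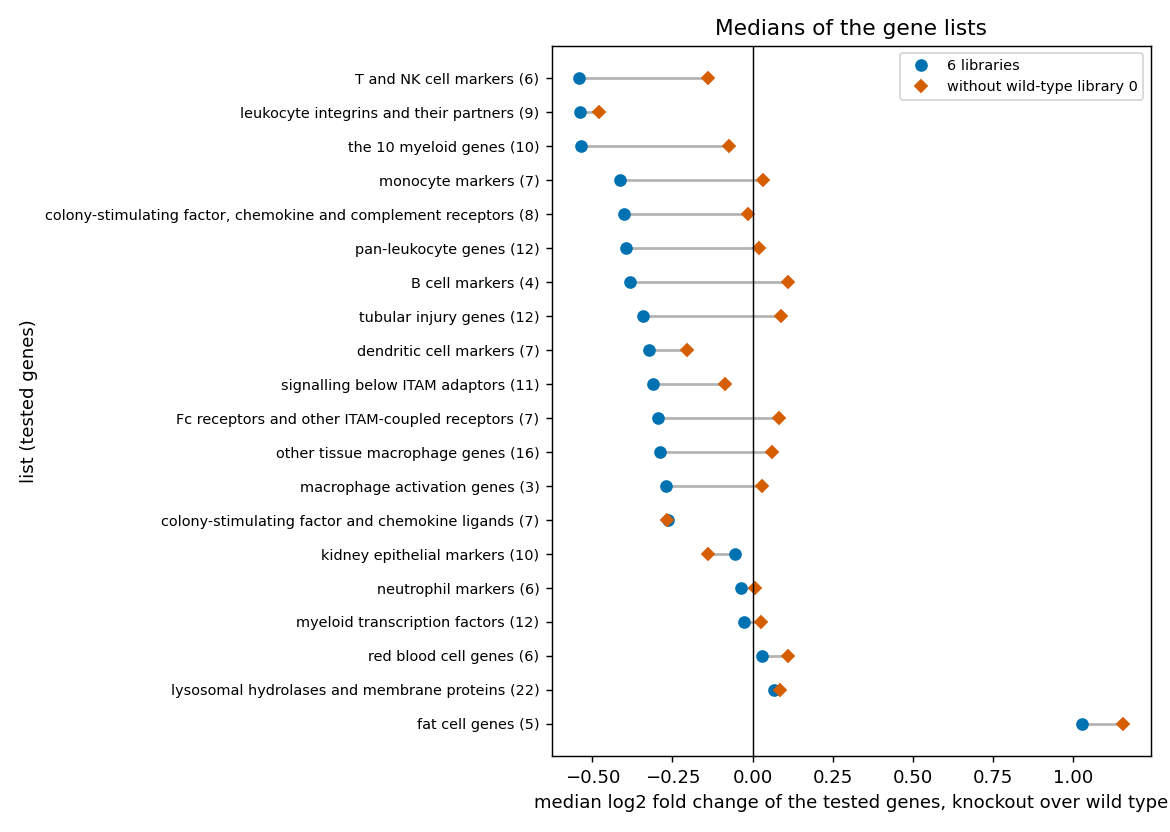
Median log2 fold change (knockout over wild type) for the tested genes of each list with at least 3 of them (number in brackets), from all 6 libraries (blue circles) and without wild-type library 0 (orange diamonds). The median of the 10 myeloid genes moves from −0.54 to −0.072, and that of the leukocyte integrins from −0.54 to −0.48.

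The authors' deposited table, which compared the group means of FPKM with Cuffdiff, called 3 of the 10 members lower in the knockout at a q-value under 0.05, against 0.657% of its 13404 tested genes called in either direction and 0.492% called lower. These were Lyz2 with a log2 fold change of −1.07 (q = 0.0106), Ctss with −0.59 (q = 0.0272) and Itgam with −0.90 (q = 0.0344). In the authors' deposited table Fcer1g followed with −0.70 (q = 0.162), Laptm5 with −0.47 (q = 0.217) and Csf1r with −0.16 (q = 0.932). Of these 3, Lyz2 and Ctss turned sign in the edgeR fit without wild-type library 0, and Itgam did not overlap between the genotypes. Of the 66 genes that the authors' deposited table called lower in the knockout, 63 were tested here. In 22 of these 63, wild-type library 0 was at least 1.5 times the next highest library, against 1.23% of all genes tested. In 23 of the 63 all knockout libraries lay below all wild-type libraries, against 6.96%. The 63 were called lower in the knockout from these same libraries, so higher shares of both are built into their selection.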

How the data were processed

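Total RNA of frozen right kidneys was sequenced from stranded libraries after removal of ribosomal RNA, per the labels' protocols. The assembly mm10 and the tools TopHat2 2.0.13, Bowtie2 2.2.3, cutadapt 1.2.1, Cufflinks 2.2.1, Cuffdiff and SAMtools 1.2 are named, without their roles, in the submitters' processing notes. Not given in the sources used here are the gene models, how strand was set and how multiple alignments were handled. For each gene and library the authors deposited estimated counts of fragments and FPKM scaled between libraries. Their deposited comparison holds a log2 fold change, a test score, a p-value and a q-value per gene, per the file headers. The numbers 0, 1 and 2 of the libraries are those of the deposited table and could not be tied to single mice, only to a genotype.

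Estimated counts were rounded (1.12% of all values, and none of the members', were not whole), filtered by filterByExpr and TMM-scaled. The test was that of edgeR 4.0.16 (quasi-likelihood, two-sided, adjusted over all genes tested) in R 4.3.3, without covariates. CPM used the TMM library sizes. The fit was tested on simulated data. Alternatives used DESeq2 1.42.0, limma 3.58.1, other scalings, filters and pseudocounts (1 and 0.1 FPKM), and left out each library. The intervals of single counts cover counting error only.

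The members and all lists were chosen with earlier results of these data known. The rule for named genes took all members, the 3 tested genes of highest mean FPKM of each list, any gene called, and the 5 genes of closest profile with an average log2 CPM of at least 1. From the lists the text describes only some of these, picked with their values known. Genes at 0 in all libraries are named outside the rule, and other genes outside it are marked as such. Of 254 genes in the lists, 248 were found by symbol, 4 by a RefSeq synonym (such as Sfpi1 for Spi1), and 2 were not analysed here. The deposited loci start from 0, and 1 was added. Promoters are from RefSeq (GRCm38.p6) and overlapping genes from GENCODE M21 (GRCm38).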

Additional observations from a re-analysis of the deposited data

How the results depend on the processing

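Of 170 member values under 17 alternatives each, 159 kept their direction, none had an adjusted p under 0.05, and the smallest was 0.428. The 11 that turned were Lyz2 (0.33), Ctss (0.11), Tyrobp (0.12), Mrc1 (0.038) and Cx3cr1 (0.13) without wild-type library 0, the same 5 with DESeq2 without it (0.34, 0.11, 0.12, 0.048 and 0.15), and Cx3cr1 under limma-voom with quality weights (0.044). The cause was not tested. The lowest values with a library left out were −1.48 for Lyz2, −0.86 for Ctss, −0.77 for Tyrobp, −0.54 for Mrc1 and −0.37 for Cx3cr1. The members' median was −0.54. It ranged from −0.76 to −0.072 with each library left out, was −0.065 with DESeq2 without wild-type library 0, and was −0.46 without Lyz2 and Ctss (chosen after seeing the data). The number of genes called, 0, became 14 with DESeq2, 53 with DESeq2 without wild-type library 0, and 1 without the filter on low counts, with robust dispersion, with quality weights and at a threshold of 0.10. With each library left out it ranged from 0 to 1, and none of those genes was a member. Of 340 list medians, 8 moved by more than the spread. They were those of the tissue macrophage, Fc receptor and monocyte lists without wild-type library 0, with edgeR (0.061, 0.082 and 0.033) and DESeq2 (0.058, 0.089 and 0.061), and that of the dendritic cell list given above. Among members that kept their sign, without knockout library 0 Csf1r went to −0.10 and Fcer1g to −0.48, and without knockout library 2 Laptm5 went to −0.73. No paired analysis was possible because the numbers in the deposited table belong to no numbered mouse in the labels. At 17 to 93 fragments a library, as for Cd68, Fcer1g, Cx3cr1 and Itgam, counting error limits what a group of 3 can show. DESeq2 gave no adjusted p for these 4 in the fit of all 6 libraries, and none for Cd68 and Itgam without wild-type library 0.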
